A study of Mus musculus with 2 samples.

Results

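The nuclei described here are excitatory neurons of mouse cortex picked out by Hs3st2, Il1rapl2, Scube1 and Deptor. A barcode was kept when at most 5% of its unique molecular identifiers (UMIs, each standing for 1 captured RNA molecule) were mitochondrial, when Slc17a7 and Sv2b, the vesicular glutamate transporter and a synaptic vesicle protein, together gave at least 2 UMIs, and when the GABA-synthesis genes Gad1 and Gad2 gave at most 1. It then needed at least 3 of the 4 genes with a UMI, and more genes of this set than of any of 6 other sets of 4 genes. Of 17501 barcodes, 9861 passed the excitatory conditions and 1338 met the whole rule. These genes chose the nuclei, so their levels below are a description and carry no test.

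The mice were wild type, of the C57BL/6 strain, with no treatment named in the labels, and nuclei were taken from their cerebral cortex after freezing. One sample was labelled as 18 months old and the other as 2 months old, and each was a pool of 3 mice. The 2 libraries of the deposited matrix are told apart by a barcode suffix that no label ties to an age. Values are therefore given for library 1 and library 2 separately, no age is attached to either, no test was run between them, and nuclei were not treated as replicates.

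Excitatory neurons of the cortex release glutamate and are arranged in layers that differ in targets. Intratelencephalic neurons connect cortical areas and the striatum and occur in most layers, extratelencephalic neurons of layer 5 project below the telencephalon, and corticothalamic neurons of layer 6 project to the thalamus. Hs3st2 encodes a sulfotransferase that places 3-O-sulfate groups on heparan sulfate, and Il1rapl2 an interleukin 1 receptor accessory protein-like membrane protein of neurons. Scube1 encodes a secreted and membrane-associated EGF-domain protein, and Deptor an inhibitor of the mTOR kinase.

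The rule took 618 of 8914 barcodes in library 1, or 6.93% (exact 95% Clopper-Pearson interval 6.41 to 7.48), and 720 of 8587 in library 2, or 8.38% (7.81 to 8.99). These intervals, and the exact 95% Poisson intervals on CPM (UMIs of a gene scaled to the UMI total of its class and library) below, cover counting error only. The nuclei were deeply covered, with a median of 9377 UMIs and 3266.5 genes in library 1 and 9893 UMIs and 3074.5 genes in library 2. The rule counts detected genes, and its share was higher among deeper nuclei. With excitatory nuclei split into 4 equal groups by UMIs, it was 2.63% in the lowest group and 22.0% in the highest in library 1, and 3.27% and 25.2% in library 2. With every barcode thinned to 3000 UMIs, which left out 2633 and 2122 shallower barcodes, the rule took 3.20% and 3.08% of the remaining barcodes. The higher share in library 2 was not seen at equal depth. The libraries shared 19 cell barcodes, and 2 of the 1338 nuclei carried one. A doublet score of 0.2 or more was found in 21 and 42 of the nuclei, which were kept.

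Not every member carried every gene. All 4 were detected in 221 nuclei of library 1 and 222 of library 2, and 3 in 397 and 498. Deptor was the gene most often without a UMI, in 187 and 290 nuclei, followed by Scube1 in 89 and 108, Hs3st2 in 67 and 60 and Il1rapl2 in 54 and 40. Genes of neighbouring sets were common: at least 2 of Rorb, Rspo1, Kcnh5 and Adam33 were detected in 240 and 262 nuclei, and at least 2 of Hs3st4, Foxp2, Syt6 and Arhgap25 in 173 and 233. A further 139 and 152 excitatory nuclei had 3 or 4 of the selecting genes but not more than of every other set, and were left out.

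Values at the edge of the rule were as follows. Nuclei just inside it, with 3 selecting genes and 2 of another set (258 and 339 nuclei), held Il1rapl2 at 936.3 CPM in library 1 and 998.7 CPM in library 2. Nuclei just outside, with 2 selecting genes and at most 1 of any other set (289 and 356 nuclei), held it at 435.1 and 598.2 CPM. For Hs3st2 the levels were 286.6 and 303.3 CPM inside against 198.4 and 210.6 CPM outside. The nuclei outside were shallower, with median UMIs of 6937 and 7648.5 against 9317.5 and 9855.

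The 4 selecting genes differed in how far they set these nuclei apart. The compared classes were made by the same rule from the Cux2 (upper-layer), Rorb (middle-layer) and Foxp2 Syt6 (layer 6 corticothalamic) sets. Il1rapl2 (ENSMUSG00000059203, chromosome X, 137570608 to 138846946 on mm10) was measured at 1309 CPM (1280 to 1337) in library 1 and 1328 CPM (1302 to 1354) in library 2. Its level in the 3 compared classes was 63.4, 71.3 and 116.6 CPM in library 1 and 58.3, 102.6 and 121.2 CPM in library 2, so the groups were far apart in both. Among the other sets, nuclei chosen by Ndst4, Cpa6, Dpyd and Ano2 came nearest, at 441.7 and 403.2 CPM.

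Deptor (ENSMUSG00000022419, chromosome 15, 55112317 to 55259271) stood at 158.1 CPM (148.4 to 168.3) and 108.4 CPM (101.1 to 116.0). The highest compared class was Foxp2 Syt6 at 39.6 and 33.1 CPM, while oligodendrocyte nuclei held 56.9 and 49.2 CPM. These were taken as a background for neuronal genes. They held 2896 and 5140 CPM summed over the listed interneuron markers, against 289.9 and 360.8 CPM in the members. Their levels are therefore given as a comparison and not as a floor. Scube1 (ENSMUSG00000016763, chromosome 15, 83604999 to 83725021) stood at 256.8 and 220.9 CPM against 102.8 and 146.5 CPM in Rorb nuclei. Hs3st2 (ENSMUSG00000046321, chromosome 7, 121391859 to 121501770) did not separate these nuclei from the corticothalamic set. It stood at 341.7 CPM (327.4 to 356.6) and 337.9 CPM (325.1 to 351.2), against 364.7 CPM (341.5 to 389.1) and 402.8 CPM (379.8 to 426.8) in Foxp2 Syt6 nuclei. Cux2 nuclei held 22.0 and 27.5 CPM of Hs3st2 and Rorb nuclei 48.7 and 85.8 CPM.

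**Figure D1:**
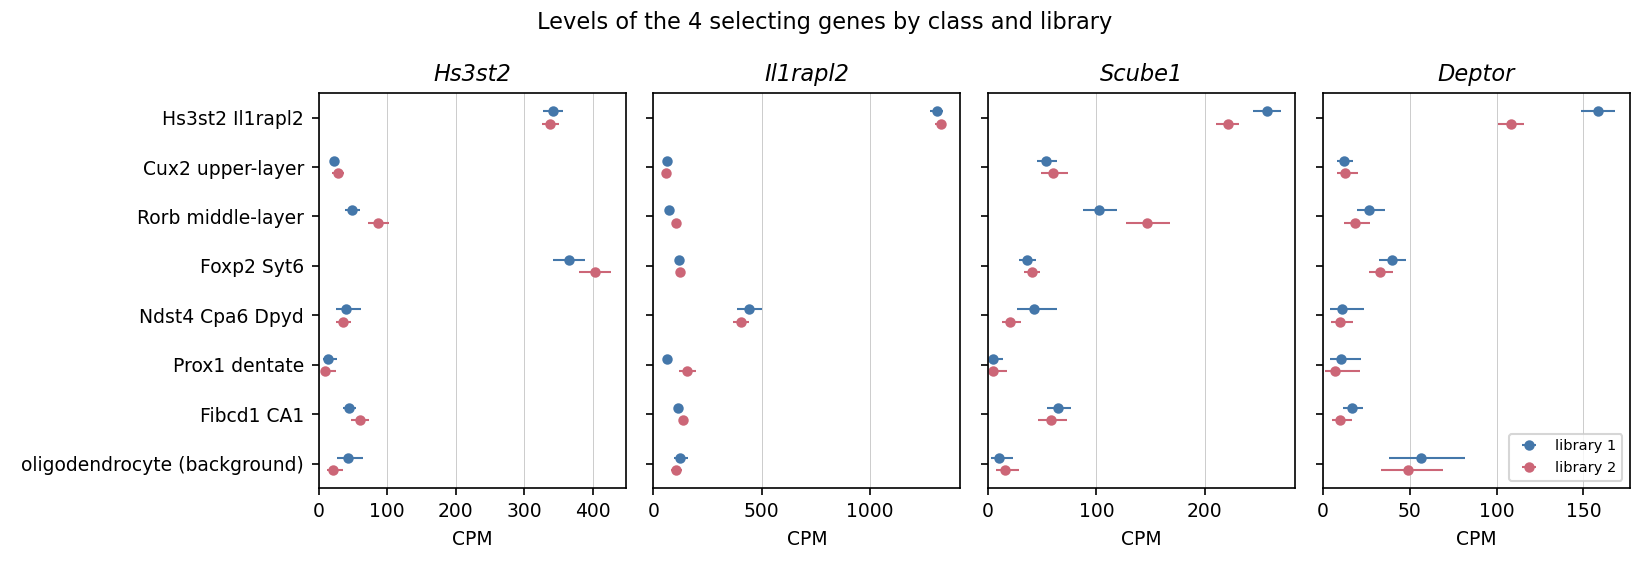
Levels in CPM (horizontal axes, linear, from 0) of the 4 genes that chose the nuclei, in each class made by the same rule and in oligodendrocyte nuclei. Points are library 1 and library 2, with exact 95% Poisson intervals from counting; Il1rapl2 was far higher in the chosen nuclei (1309 and 1328 CPM) than in any other class, whereas Hs3st2 was as high in the Foxp2 Syt6 nuclei (364.7 and 402.8 CPM).

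The layer label was set against markers that the rule did not use. Of the 5 measured layer 5 intratelencephalic markers 2 were called higher by the fold given below, as were 0.466% of all tested genes. Upper-layer and layer 6 corticothalamic markers had medians below the mean of the compared classes. That mean holds classes chosen by upper-layer and by corticothalamic genes, and members had to carry fewer genes of those sets than of their own. Low medians of these lists were thus largely built into the comparison and are no check on the label. On the log2 scale of CPM with 1 CPM added, the median gene of all 10520 tested lay at -0.04 in library 1 and -0.06 in library 2 of members over the mean of the 3 compared classes. The 7 measured upper-layer markers had medians of -1.10 and -1.04, and none was highest in these nuclei in both libraries. Cux1, a transcription factor of upper-layer neurons, stood at 145.1 and 135.0 CPM against 412.4 and 443.9 CPM in Cux2 nuclei and 99.5 and 94.4 CPM in Foxp2 Syt6 nuclei. The upper-layer level was therefore between the upper-layer and the layer 6 set. The 3 measured layer 4 markers were not lowered, with medians of -0.05 and -0.02, and Thsd7a was highest in these nuclei in both libraries. The summed level of that list was 949.6 and 1119 CPM here, against 254.5 and 329.9 CPM in Foxp2 Syt6 nuclei. Cux2 nuclei held 1150 and 1260 CPM and Rorb nuclei 1974 and 2227 CPM.

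The 5 measured layer 5 intratelencephalic markers had medians of 0.71 and 1.49, and Etv1, Parm1 and Tmem163 were each highest in these nuclei in both libraries. Etv1, a transcription factor of layer 5, stood at 101.1 CPM (93.4 to 109.3) and 88.5 CPM (82.0 to 95.4), against at most 45.2 and 32.7 CPM in the compared classes. Oligodendrocyte nuclei held 82.3 and 69.2 CPM of Etv1 and Fibcd1 CA1 nuclei 132.6 and 142.5 CPM, so Etv1 was not particular to the chosen nuclei. Parm1, a membrane mucin-like protein, stood at 49.9 and 41.8 CPM against at most 42.0 and 30.3 CPM. It was above the member level in oligodendrocyte nuclei, at 60.8 and 124.5 CPM. Col6a1, a collagen chain on the same list, went the other way, at 48.8 and 11.8 CPM against 170.1 and 23.6 CPM in Foxp2 Syt6 nuclei. The summed level of the list was 322.6 and 270.2 CPM in the chosen nuclei and 272.5 and 504.0 CPM in oligodendrocyte nuclei. Foxp2 Syt6 nuclei held 287.4 and 125.8 CPM, Cux2 nuclei 135.8 and 83.1 CPM, and Rorb nuclei 99.8 and 105.3 CPM.

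Other deep-layer lists were not shifted together. The 7 corticothalamic markers had medians of -0.92 and -1.06, and Tle4, a corepressor of these neurons, stood at 72.4 and 83.3 CPM against 348.1 and 473.6 CPM in Foxp2 Syt6 nuclei. Their summed level was below that class alone, at 878.0 and 1004 CPM against 3298 and 4095 CPM. Cux2 nuclei held 386.0 and 423.6 CPM and Rorb nuclei 573.3 and 624.4 CPM, so these markers were not lower here than in every compared class. The 4 measured layer 5 extratelencephalic markers had medians of -0.21 and 0.06. Among them Fezf2, the transcription factor that specifies subcerebral projection neurons, stood at 24.6 and 8.18 CPM against 40.0 and 10.2 CPM in Foxp2 Syt6 nuclei. The 6 layer 6 intratelencephalic markers had medians of 0.05 and 0.00, yet Oprk1 and Zfp804b passed the fold used below, Oprk1 only with sub-cluster 12 included. The summed level of that list was 604.3 and 962.8 CPM, against at most 525.3 and 764.0 CPM in the compared classes. The 3 measured near-projecting markers had medians of 0.53 and 0.76, with Vwc2l highest in both libraries and none called. The 4 claustrum markers had medians of 0.71 and 0.85, with Nr4a2 and Ntng2 highest in both libraries. Their summed level was not above every compared class, at 266.3 and 266.0 CPM against 385.6 and 262.5 CPM in Cux2 nuclei. Rorb nuclei held 164.55 and 155.6 CPM, Foxp2 Syt6 nuclei 108.6 and 90.2 CPM, and oligodendrocyte nuclei 403.9 and 949.6 CPM. In a mixed set of nuclei, such values cannot tell a few nuclei with high levels from many with low levels, which the sub-clusters below take up.

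Markers of interneurons, oligodendrocytes and astrocytes had medians below those of all tested genes. The 6 interneuron markers had medians of -0.36 and -0.19, the 4 measured oligodendrocyte markers -0.24 and -0.15, and the 6 astrocyte markers -0.40 and -0.55. The summed astrocyte level was 109.0 and 154.4 CPM here and 207.3 to 226.4 CPM in library 1 and 234.0 to 373.2 CPM in library 2 in the compared classes. The summed oligodendrocyte level was 292.5 and 373.1 CPM here, within the 278.6 to 327.3 CPM of the compared classes in library 1 and the 370.6 to 442.3 CPM in library 2. Aldh1l1 of the astrocyte list was highest in the chosen nuclei in both libraries, at 12.5 and 12.7 CPM against at most 7.13 and 9.16 CPM. The summed endothelial level was above that of the compared classes in library 1, at 20.2 CPM against 8.66 to 12.3 CPM, and below it in library 2, at 39.8 CPM against 66.1 to 108.2 CPM. Flt1 was the only endothelial marker measured, with log2 values of 0.94 and -1.06.

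**Figure D2:**
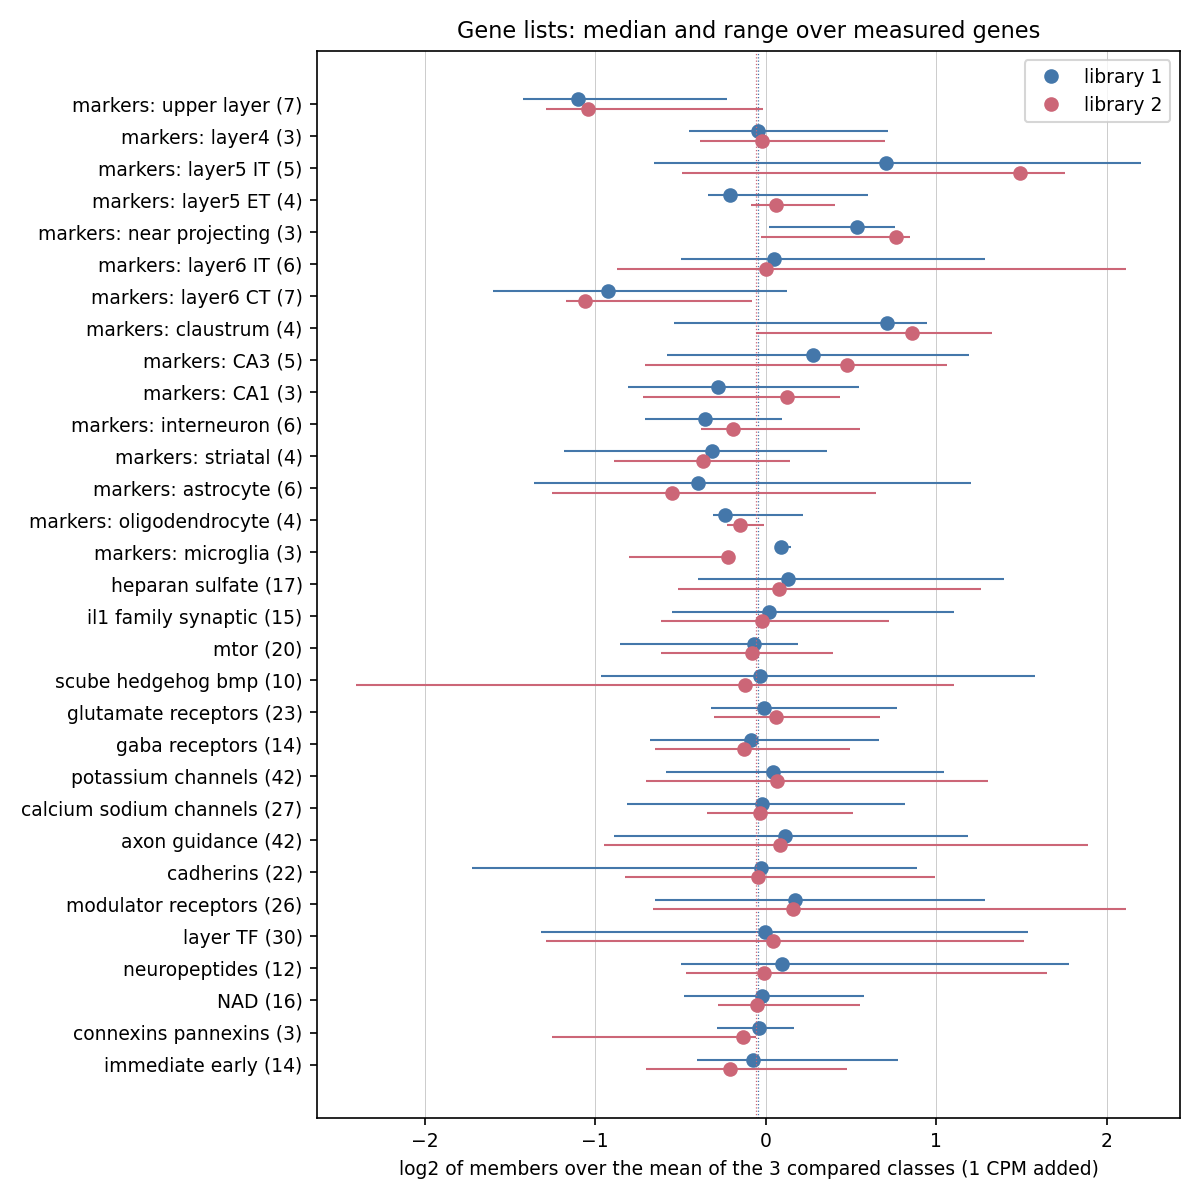
Log2 of the member level over the mean of the 3 compared classes (horizontal axis, 1 CPM added) for each list with at least 3 measured genes, whose number stands in parentheses. Points are list medians in library 1 and library 2, horizontal lines run from the lowest to the highest gene, and dotted lines mark the median of all tested genes (-0.04 and -0.06). Layer 5 intratelencephalic (0.71 and 1.49) and claustrum markers (0.71 and 0.85) had the highest medians in both libraries, and upper-layer (-1.10 and -1.04) and corticothalamic markers (-0.92 and -1.06) the lowest. Classes chosen by upper-layer and by corticothalamic genes are part of the mean, which lowers these last lists.

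Few genes set these nuclei apart from all 3 cortical classes at once. A gene was called when its CPM, with 1 CPM added, was at least 1.5 times that of each compared class in both libraries. This rule called 49 of 10520 tested genes higher, a background of 0.466%, and 7 lower, a background of 0.0665%. Highest in both libraries without regard to size were 5.53% of tested genes, and lowest were 7.87%. With all 6 other sets compared, an alternative chosen after seeing the data, 12 of the 49 higher calls remained and 0 of the 7 lower ones. Among the 12 were Npsr1, Tmem163, Piezo1, Ptprm, Adgrg6, Dnah14, Opn3, Adcy7, Col15a1, Rxfp2 and Prrg1. Several of these calls rested on 1 of the sub-clusters described below. Without sub-cluster 2, Col15a1 was 1.83 and 1.38 times and Prrg1 1.19 and 1.77 times the highest of the 3 compared classes, and Rxfp2 fell under the minimum of 50 UMIs, with 0.968 times in library 2. Without sub-cluster 3, Dnah14 was 2.88 and 1.46 times. Piezo1 and Adcy7 (without sub-cluster 1 or 7) and Opn3 (without sub-cluster 1) dropped under the UMI minimum alone, with ratios still past the fold in both libraries.

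Receptors, channels and adhesion proteins were among the leading genes. Npsr1 (ENSMUSG00000043659, chromosome 9, 24097996 to 24316398), the neuropeptide S receptor, stood at 23.6 CPM (19.9 to 27.7) and 46.7 CPM (42.0 to 51.8). The compared classes held at most 3.56 and 6.34 CPM, which made it the gene with the largest ratio once the selecting genes were left out, at least 5.39 in either library. Oligodendrocyte nuclei held 11.8 and 6.15 CPM of it, from 6 and 4 UMIs.

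Trpc7, a cation channel of the canonical transient receptor potential family, stood at 10.9 and 13.0 CPM against at most 3.54 and 4.23 CPM. Piezo1, a channel opened by membrane stretch, stood at 9.31 and 6.62 CPM against at most 2.36 and 2.11 CPM. Oprk1, the kappa opioid receptor, stood at 9.47 and 13.1 CPM against at most 4.36 and 3.52 CPM, a call that ended without the 39 nuclei of sub-cluster 12, where it was 1.35 and 1.17 times and under the UMI minimum. These 3 genes were at low levels, from 51 to 101 UMIs a library in the chosen nuclei.

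Ptprm (ENSMUSG00000033278, chromosome 17, 66666947 to 67354457), a receptor tyrosine phosphatase that binds between like cells, stood at 278.2 CPM (265.2 to 291.6) and 225.0 CPM (214.6 to 235.9). Rorb nuclei held 113.5 and 91.4 CPM, the highest of the compared classes, and oligodendrocyte nuclei 239.2 and 192.1 CPM. Fras1, an extracellular matrix protein of basement membranes, stood at 321.2 and 320.9 CPM against at most 136.0 and 157.7 CPM. Adgrg6, an adhesion G protein-coupled receptor, stood at 27.3 and 13.4 CPM against at most 8.91 and 4.93 CPM, with 41.2 and 10.8 CPM in oligodendrocyte nuclei.

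Secreted factors and vesicle genes were also present. Rspo2 (chromosome 15, 43020794 to 43170826), a secreted enhancer of Wnt signalling, stood at 105.5 CPM (97.6 to 113.8) and 100.7 CPM (93.7 to 108.0) against at most 49.6 and 38.1 CPM. Rab3c, a small GTPase of synaptic vesicles, stood at 300 and 317.3 CPM against at most 149.1 and 146.7 CPM, and was higher still in Fibcd1 CA1 nuclei at 350.2 and 369.0 CPM. Tmem163 (chromosome 1, 127486546 to 127679548), a zinc transporter, stood at 108.3 and 117.3 CPM against at most 34.6 and 37.0 CPM, but at 292.0 CPM in oligodendrocyte nuclei of library 2. Galnt14, an enzyme that starts O-linked glycosylation, stood at 174.6 and 215.8 CPM against at most 59.4 and 80.3 CPM.

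The other leading genes were of varied kinds, and Gm36251 and Gm2694 among them are long intergenic noncoding RNAs. Gm36251 stood at 12.7 and 26.9 CPM against at most 2.78 and 9.07 CPM, and Gm2694 at 12.4 and 14.0 CPM against at most 4.36 and 3.88 CPM. Shc4, an adaptor of receptor tyrosine kinases, stood at 23.3 and 11.03 CPM against at most 8.32 and 2.82 CPM, with 11.8 and 16.9 CPM in oligodendrocyte nuclei. Slc26a4, an anion exchanger, stood at 32.4 and 22.5 CPM against at most 13.8 and 7.86 CPM, and at 64.1 and 38.4 CPM in Ndst4 Cpa6 Dpyd nuclei. Opn3, an opsin found outside the eye, stood at 11.6 and 7.79 CPM against at most 4.75 and 2.47 CPM, with 1 UMI in oligodendrocyte nuclei of each library.

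Adcy7, an adenylyl cyclase, stood at 11.1 and 6.10 CPM against at most 3.57 and 2.62 CPM, and oligodendrocyte nuclei held 0 UMIs of it, which allows up to 7.23 and 5.67 CPM by the Poisson interval. Raver2, an RNA-binding protein, stood at 66.5 and 69.7 CPM against at most 28.3 and 31.4 CPM, and Rhbdl3, a rhomboid-family membrane protein, at 49.3 and 48.3 CPM against at most 22.4 and 19.6 CPM. Both libraries gave nearly the same levels of these last genes, well clear of all 3 compared classes.

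Some of the 49 genes belonged to shared families, which were picked out after their values were seen. Besides Trpc7, the related channel Trpc5 passed, at 1.60 times the highest compared class in the library with the lower ratio. Besides Galnt14, with 2.67 by the same measure, the GalNAc-transferase family genes Galntl6 and Galnt17 passed at 1.79 and 1.71. Genes of the cell surface and matrix included Col15a1 at 1.85, Cntn5 at 1.70, Cntnap3 at 1.69 and Reln at 1.68. Receptors included Ptger3, a prostaglandin E receptor, at 1.93 and Rxfp2, a relaxin family receptor, at 1.76. Cpne4, a copine on the CA3 list, passed at 1.57, with 406.9 and 416.7 CPM here against at most 233.4 and 265.8 CPM. Of these family and receptor genes, Cntn5, Galntl6 and Cpne4 were not called without sub-cluster 1, Cpne4 and Reln without sub-cluster 5, Reln and Cntnap3 without sub-cluster 10, and Cntnap3 and Cpne4 without sub-cluster 12. Reln was then at 1.13 and 0.850 times without sub-cluster 5, and Cntnap3 at 1.38 and 0.936 times without sub-cluster 12.

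Several leading genes were as high in nuclei just outside the rule as in the members. Of the 20 leading genes, 6 were at or above the member level in both libraries in nuclei just outside it, namely Npsr1, Tmem163, Galnt14, Trpc7, Slc26a4 and Rhbdl3. Npsr1 stood at 81.0 and 64.9 CPM there. In nuclei just inside the rule 2 of the 20 were, Trpc7 and Dnah14. Nuclei inside had 2 genes of another set and those outside at most 1, so these 2 groups are not matched and trace no gradient. Of the same 20 genes, 5 were at or above the member level in Fibcd1 CA1 nuclei of both libraries (Trpc7, Slc26a4, Etv1, Raver2 and Rab3c). In Ndst4 Cpa6 Dpyd nuclei 2 were (Slc26a4 and Rhbdl3), and 8 of all 49 higher calls. In oligodendrocyte nuclei of both libraries 0 of the 20 were.

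**Figure D3:**
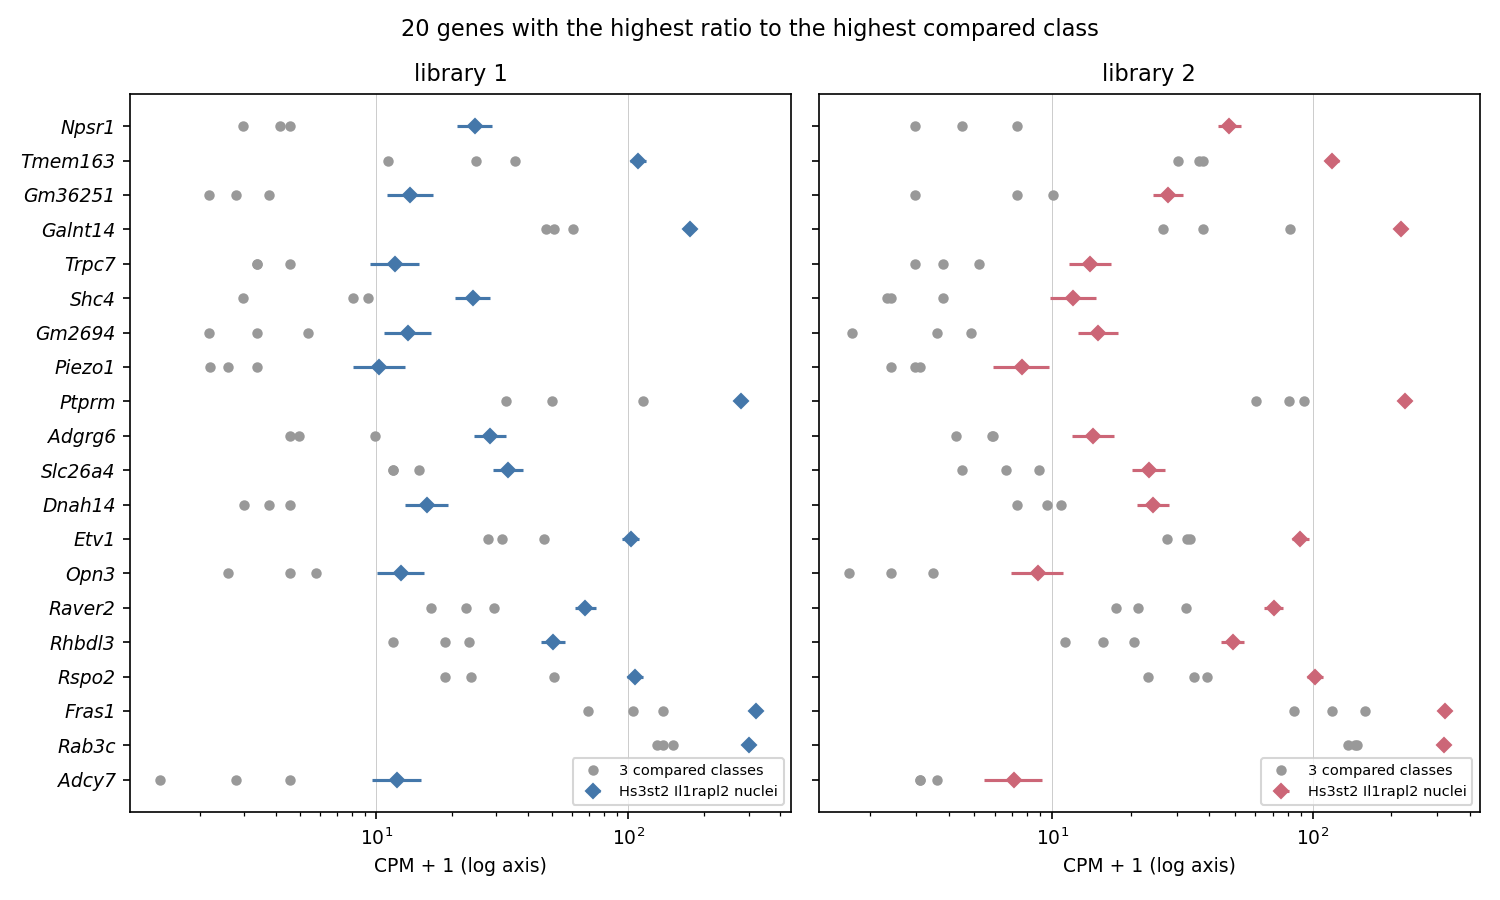
CPM + 1 (horizontal axes, logarithmic) of the 20 genes with the largest ratio to the highest compared class, the selecting genes left out, in library 1 and library 2. Diamonds are the Hs3st2 Il1rapl2 nuclei with exact 95% Poisson intervals from counting, and grey points the Cux2, Rorb and Foxp2 Syt6 nuclei; Npsr1 stood farthest above them (23.6 and 46.7 CPM).

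Fewer genes were lower here than in all compared classes. Plcb4 (chromosome 2, 135659011 to 136014593), a phospholipase C that acts downstream of Gq-coupled receptors, stood at 82.7 CPM (75.7 to 90.1) and 86.2 CPM (79.7 to 93.0) against at least 199.6 and 230.9 CPM. The same gene stood at 11 and 25.9 CPM in Ndst4 Cpa6 Dpyd nuclei. Kctd8, an auxiliary subunit of GABA-B receptors, stood at 46.9 and 49.1 CPM against at least 86.0 and 97.7 CPM. Kctd1, a nuclear repressor protein, stood at 114.8 and 135.1 CPM against at least 235.1 and 222.4 CPM. Slc4a4, a bicarbonate transporter on the astrocyte list, stood at 63.4 and 94.4 CPM against at least 154.5 and 154.7 CPM. Snx9, Zbtb7c and Prdm16 completed the 7. Plcb4, Kctd8 and Kctd1 stayed called whichever of the sub-clusters described below was left out. Slc4a4 and Snx9 were not called without sub-cluster 2, at 0.671 and 0.690 times the lowest compared class in library 2. Zbtb7c and Prdm16 passed narrowly, both at 0.662 times in the library with the higher ratio. Zbtb7c was lost without sub-cluster 3, 4, 5, 7, 10 or 12, and Prdm16 without 1, 2, 3, 5, 6, 8, 10 or 12.

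Functional lists around the 4 selecting genes are set beside the share called over all tested genes, 0.466% higher and 0.0665% lower. Lists this short would mostly hold 0 calls at that share, so 0 called is no result about a list. Of 17 measured heparan sulfate genes, 1 was called higher and 0 lower. This was Ndst3, an enzyme that deacetylates and sulfates the heparan sulfate chain, at 351.9 and 271.4 CPM against at most 190.5 and 171.5 CPM. It was not called without sub-cluster 2 or 9, at 1.40 and 1.42 times the highest class in library 2. Sulf2, which removes 6-O-sulfate groups, was highest in both libraries at 111.9 and 87.7 CPM against 64.2 and 68.4 CPM in Foxp2 Syt6 nuclei, short of the fold, and oligodendrocyte nuclei held 117.6 and 93.7 CPM. Of 15 interleukin 1 receptor-like and partner genes at synapses, 20 mTOR pathway genes and 10 hedgehog and BMP pathway genes around Scube1, 0 were called in either direction. In the last group 4 of 10 genes, Disp2, Bmp3, Bmpr1b and Chrd, were highest in both libraries, as were 5.53% of all tested genes. Bmp3, a BMP family ligand, stood at 16.2 and 18.2 CPM against at most 14.2 and 11.8 CPM, and Chrd, which binds BMPs outside the cell, at 59.7 and 23.0 CPM against at most 45.2 and 19.6 CPM.

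The listed ion channel and transmitter receptor genes were not called, although single genes differed from single classes. None of 23 glutamate receptor genes, 14 GABA receptor genes, 42 potassium channel genes, 27 calcium and sodium channel genes, 42 axon guidance genes or 22 cadherins was called. Over all tested genes 0.466% were called higher and 0.0665% lower, so 0 calls is the usual outcome for lists of this size. List medians of these 6 lists lay between -0.13 and 0.11. Cacna2d3, an auxiliary calcium channel subunit, stood at 0.502 and 0.597 of the highest class and at 2.26 and 2.32 times the lowest. Kcnip4, an auxiliary potassium channel subunit, stood at 2.33 and 2.25 times the lowest class, and the metabotropic glutamate receptor gene Grm7 at 1.82 and 1.86 times the lowest. Among glutamate receptors, Grin3a was one of those highest in both libraries, and Gria2 was lowest. Grin3a, an NMDA receptor subunit, stood at 40.0 and 50.6 CPM against at most 25.6 and 41.9 CPM. Among axon guidance genes 8 of 42 were highest in both libraries, Plxna1, Epha5, Efna3, Robo2, Slit2, Unc5c, Ntng1 and Ntng2. Over all tested genes the share highest in both libraries was 5.53%. Ntng2 stood at 1932 and 1198 CPM in sub-cluster 12, described below, and at 86.2 CPM in the other members. Slit2, a repellent ligand for Robo receptors, stood at 231.3 and 274.1 CPM against at most 155.6 and 258.1 CPM.

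Of 26 modulator receptors 1 was called, Oprk1, which was not called without sub-cluster 12, and of 30 layer transcription factors 1, Etv1. Of 12 neuropeptide and secreted signal genes 1 was called, Rspo2. Of 16 NAD enzymes, 3 connexins and pannexins and 14 immediate early genes, 0 were called. The share called over all tested genes was 0.466% higher and 0.0665% lower, so these counts say little about lists this short.

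The nuclei were not uniform among themselves. Clustered as measured, they fell into 10 sub-clusters, and 4 of these, with 851 nuclei or 63.6% of the members, had at most 5% of their nuclei from 1 of the libraries. Expression was therefore also clustered after each gene was centred within its library, an alternative chosen after seeing this. It gave 12 sub-clusters, each with 35.1% to 55.0% of its nuclei from library 1 (46.2% overall). Sub-cluster genes below are descriptions, since they defined the clusters. Centring can also remove differences that follow age, which cannot be told apart from library here.

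**Figure D4:**
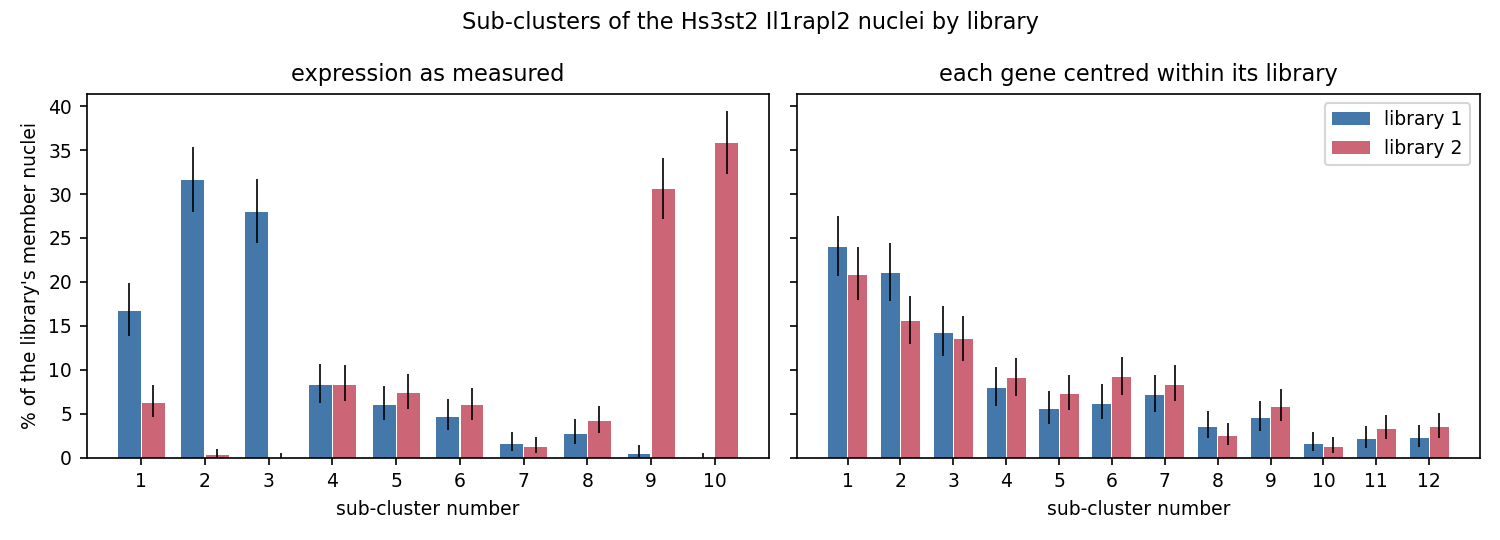
Share of each library's member nuclei (vertical axes, percent, from 0) in each sub-cluster, with exact 95% Clopper-Pearson intervals. The left panel clusters expression as measured, where sub-clusters 2, 3, 9 and 10 came almost wholly from 1 library; the right panel clusters expression centred within each library, where all 12 held both.

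Numbers from here on are of the centred clustering, in CPM over both libraries summed. The selecting genes were carried unevenly. Sub-cluster 2, with 242 nuclei, held 39.7% of the members' Il1rapl2 UMIs and 40.1% of their Deptor UMIs in 18.1% of the nuclei. Its levels were 3028 CPM of Il1rapl2, 302.7 CPM of Deptor and 148.9 CPM of Etv1. Sub-cluster 1, the most populous with 298 nuclei, held 844.5 CPM of Il1rapl2 and had Col26a1, Hgf, Whrn, Rorb and Thsd7a among its leading genes. Whrn and Thsd7a are on the layer 4 list, and Rorb is in the set that chose the middle-layer class. Sub-cluster 3, with 185 nuclei, led in Hs3st2 at 531.6 CPM, with Cdh9, Chrm2, Galnt14 and Sema3e among its leading genes.

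A group of 39 nuclei, sub-cluster 12, was claustrum-like by the listed markers. It held 14 nuclei of library 1 and 25 of library 2, or 2.91% of all. The 4 measured claustrum markers were all highest there, with Nr4a2, a nuclear receptor, at 557.6 and 267.5 CPM in library 1 and library 2, and Gnb4, a G protein subunit, at 313.2 and 350.4 CPM. Ntng2, an axonal membrane protein, stood at 1932 and 1198 CPM, and Synpr, a synaptic vesicle protein, at 1108 and 949.6 CPM. Collagen genes Col11a1 and Col24a1 and the layer 6 marker Oprk1 were also among its leading genes. This small group carried 56.2% of the members' Oprk1 UMIs and 25.6% of their Tmem163 UMIs, at 1019 CPM of Tmem163. Without it, Tmem163 was still 2.51 and 2.27 times the highest compared class, whereas Oprk1 was 1.35 and 1.17 times and was no longer called.

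A second group, sub-cluster 9, carried much of the leading Npsr1 and Trpc7 signal. Its 70 nuclei, 5.23% of the members, held 40.2% of the Npsr1 UMIs and 45.8% of the Trpc7 UMIs. Npsr1 was measured there at 122.0 CPM (87.9 to 164.9) in library 1 and at 254.9 CPM (217.2 to 297.4) in library 2, and Trpc7 at 78.4 and 78.7 CPM. Il1rapl2 was lowest of the 12 there, at 214.3 CPM. Fezf2 at 45.9 CPM and Parm1 at 186.8 CPM were highest of the 12, and Kctd8, one of the 7 genes lower in the members as a whole, was among its leading genes. No list put 3 markers among its leading genes, so it has no cell type name. Without it, Npsr1 was still 4.13 and 3.95 times, and Trpc7 1.75 and 1.54 times, the highest compared class.

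Sub-cluster 4, with 114 nuclei, carried layer 6 markers of more than 1 list. Thsd7b at 1109 CPM and Tle4 at 480.4 CPM, both on the corticothalamic list, were highest there, and so were Ctgf at 85.5 CPM and Moxd1 at 31.6 CPM of the layer 6b list. Foxp2 and Hs3st4, of the set that chose the corticothalamic class, were among its leading genes. The selecting rule had kept these nuclei all the same, with Il1rapl2 at 1191 CPM. Sub-cluster 8, with 40 nuclei, led in Tshz2, a zinc finger gene of near-projecting neurons, at 3201 CPM. Vwc2l, another marker on that list, stood at 174.7 CPM there and at 626.8 CPM in sub-cluster 10. Neither sub-cluster 4 nor sub-cluster 8 was given a name.

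Glial and vascular markers marked a pair of sub-clusters. Sub-cluster 7, with 104 nuclei, was highest in the myelin genes Mbp at 334.1 CPM and Mog at 16.1 CPM. A doublet score of 0.2 or more was found in 11.4% and 13.3% of its nuclei. Etv1 was also highest there, at 193.4 CPM, and without this sub-cluster it was still 1.89 and 2.46 times the highest compared class. Sub-cluster 11, with 37 nuclei, was highest in Slc1a3, an astrocyte glutamate transporter, at 223.1 CPM, Flt1, an endothelial VEGF receptor, at 191.9 CPM, and Pdgfra, a receptor of oligodendrocyte precursors, at 77.8 CPM. In 8 of its 13 nuclei of library 1 and 19 of 24 of library 2 the doublet score was 0.2 or more.

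Leaving out sub-cluster 11 moved the count of lower genes from 7 to 24 and the count of higher genes from 49 to 51. Leaving out sub-cluster 7 gave 11 lower and 46 higher genes, and leaving out sub-cluster 2 gave 4 lower and 52 higher. The count of higher genes lay between 46 and 60 whichever of the 12 was left out.

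**Figure D5:**
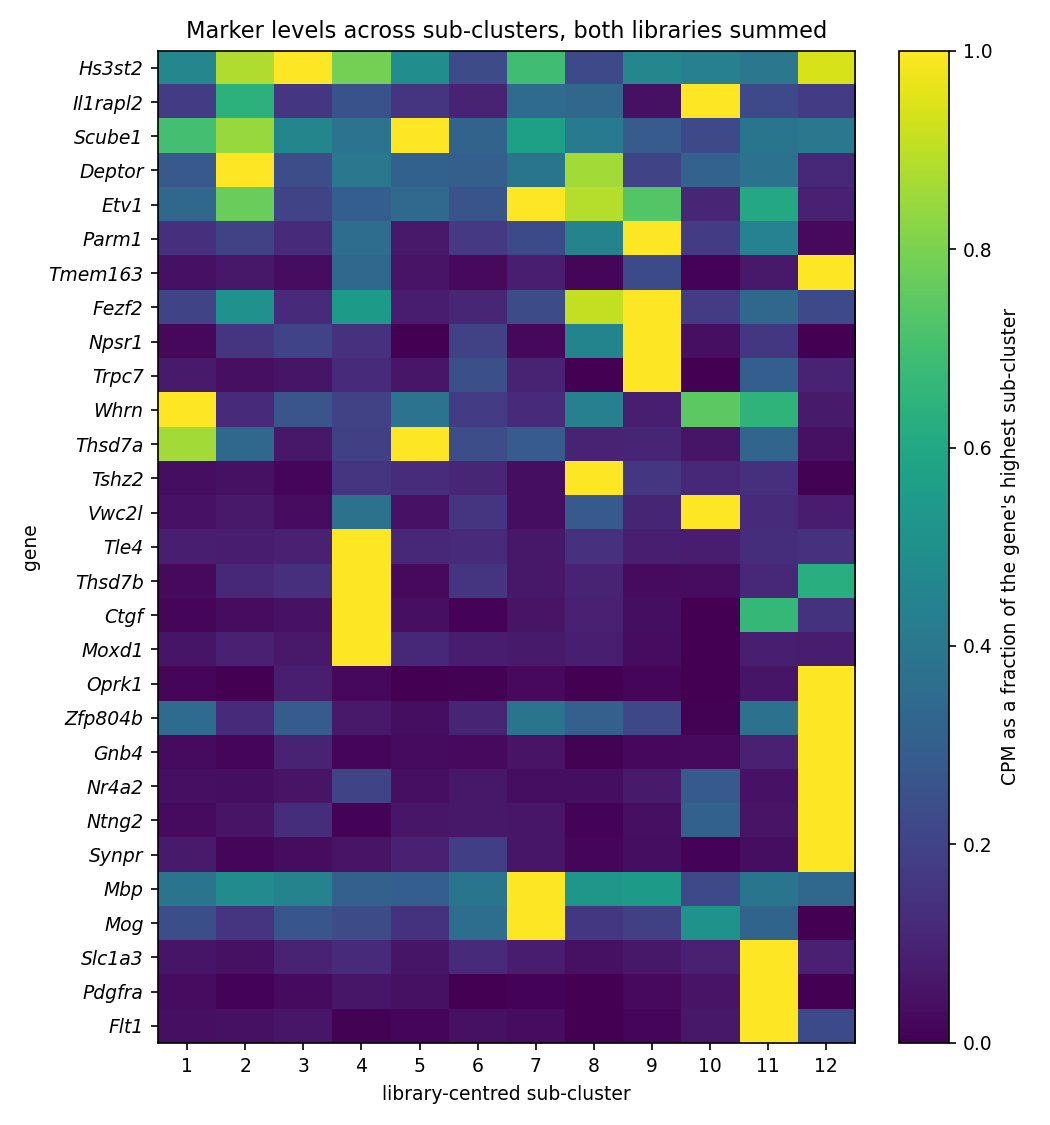
Level of named genes (rows) in the 12 library-centred sub-clusters (columns), both libraries summed, as a fraction of each gene's highest sub-cluster (colour, 0 to 1). Claustrum markers and Oprk1 were highest in sub-cluster 12, Npsr1, Trpc7 and Fezf2 in sub-cluster 9, layer 6 markers Tle4 and Ctgf in sub-cluster 4, and glial or vascular markers in 7 and 11.

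The libraries differed within these nuclei in both directions. Among 8613 genes with at least 50 member UMIs in each library, 241 were at least 1.5 times higher in library 2, a background of 2.8%, and 1510 were at least 1.5 times higher in library 1, a background of 17.5%. The median gene lay at -0.23 on the log2 scale of library 2 over library 1. Over the 7960 genes measured in all 4 classes, the medians were -0.23 in Cux2, -0.19 in Rorb and -0.22 in Foxp2 Syt6 nuclei, near that of the members. Relative to the median gene, 413 of the 7960 genes, or 5.19%, were higher in library 2 and 545, or 6.85%, in library 1.

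Genes higher in library 2 were often not protein-coding. Of the 213 such genes among the 7960 without regard to the median, 46.9% had no protein-coding annotation, against 3.68% of all measured genes and 2.11% of those higher in library 1. In Cux2, Rorb and Foxp2 Syt6 nuclei the share was 32.9%, 26.7% and 33.7%. Relative to the median gene it was lower, at 29.3% of 413 genes in the chosen nuclei and 20.1%, 18.5% and 21.9% in the other classes. The antisense gene Sorbs2os stood at 34.4 CPM in library 1 and 314.8 CPM in library 2, and at 46.4 and 498.9 CPM in Cux2 nuclei. In the opposite direction Cdk9, a kinase that releases paused RNA polymerase, stood at 76.9 and 17.8 CPM, and at 109.0 and 24.9 CPM in Cux2 nuclei. Counting by strand is not given in the sources used here, so reads of Sorbs2os and of the gene it overlaps cannot be told apart.

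Immediate early genes, which neurons transcribe within minutes of activity, were higher in library 1. Egr3 was measured at 55.1 CPM (49.4 to 61.2) in library 1 and at 15.3 CPM (12.7 to 18.3) in library 2. Relative to the median gene, the 8 measured genes of that list had a median log2 ratio of library 2 to library 1 of -0.59, and 7 of 8 lay below the median gene. Without that correction 7 of 8 were higher in library 1, as were 76.4% of all measured genes. The same median was -0.39 in Cux2, -0.29 in Rorb and -0.28 in Foxp2 Syt6 nuclei. The selecting genes Il1rapl2 and Hs3st2 stood at ratios of 1.01 and 0.989 between libraries, and Scube1 and Deptor at 0.861 and 0.687. Age, pool, library preparation and sequencing cannot be told apart in these differences.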

How the data were processed

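Single nuclei of 2 pools of 3 mice were profiled on the 10x Chromium platform. The deposited matrix holds raw UMI counts of 30905 genes in 17501 barcodes, per the file headers. Cell Ranger 3.1.0 is named in the matrix header, whereas Cell Ranger 2.0.1, Seurat 3.1, R 4.0.2 and mm10 stand in the submitters' processing notes, a conflict that was not settled. Libraries held 58108297 and 60547146 UMIs over 8914 and 8587 barcodes. The selecting rule was applied to the raw counts, and UMIs were summed per class and library as CPM with exact 95% Poisson intervals. Genes needed 50 UMIs over the 4 classes in each library. The named genes were the 4 selecting genes, the 20 highest and 10 lowest by ratio, list members past 1.5 times (otherwise the most abundant) and the 6 genes differing most between libraries each way, and other genes were named after their values were seen. Oligodendrocyte nuclei, 196 in each library, needed 3 listed markers and had median UMIs of 2102.5 and 2826. Sub-clusters used scanpy 1.11.5 with 2000 variable genes, 15 principal components and Leiden resolution 0.5, with doublets scored but kept. Positions are from GENCODE vM21. Members and lists were chosen with earlier results of these data known. The calling script was checked on simulated data. No comparison between ages was made. A few genes are not reported here.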

Additional observations from a re-analysis of the deposited data

How the results depend on the processing

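The share of barcodes taken by the rule moved with how the nuclei were chosen, and in library 1 and library 2 it was 2.48% and 2.59% with all 4 genes required, 3.74% and 4.05% with a lead of at least 2 genes, 4.96% and 6.74% with a mitochondrial limit of 1%, 5.27% and 6.52% with Gad1 and Gad2 at 0, and 3.20% and 3.08% at 3000 UMIs. The count of higher genes was 25 after thinning and 12 against all 6 other sets, and between 37 and 73 in the other settings. Of the 49 genes, 16 were among those called after thinning, 36 with all 4 genes required and 34 with a lead of at least 2 genes. The count of lower genes was 29 with all 4 genes required, 4 with 5 CPM added, 0 against all 6 other sets, and 4, 11 and 24 without centred sub-cluster 2, 7 and 11. The alternatives on other sets and on sub-clusters were chosen after seeing the data, and the cause of these moves was not tested. All 56 called genes kept their direction in 7 of 8 settings checked, and 53 did after thinning, where Vegfd, Rgs12 and Cntnap3 turned in library 1. Direction was the sign of the log2 of members over the mean of the compared classes. This is weaker than the calling rule: Rgs12 at 0.13 in library 1, with all 4 genes required, counted as kept. The members formed 7 to 15 sub-clusters over the settings tried. No paired analysis was possible because the result comes from no test and each age is 1 sample. No library was left out in turn, since each call needs both. Genes under about 10 CPM rest on few UMIs in the compared classes.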
